A study of Homo sapiens with 16 samples.

Results

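Integrins and laminins were described in 2 BRAF-inhibitor-resistant human melanoma lines treated with corin or its vehicle. The members were the protein-coding genes of the count table whose symbol names an integrin alpha chain (ITGA followed by a digit or by D, E, L, M, V or X), an integrin beta chain (ITGB and a single digit) or a laminin chain (LAMA, LAMB or LAMC and a single digit). They came to 38 genes, 18 of them integrin alpha chains, 8 integrin beta chains and 12 laminin chains, among 34228 genes in the table and 18159 protein-coding ones. All 38 annotated genes that meet the rule were in the table, and 37 of them, with 11 laminin chains, are described.

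Integrins are heterodimers of an alpha and a beta chain that span the cell membrane, bind the extracellular matrix or counter-receptors on other cells, and connect to the actin cytoskeleton inside. Laminins are secreted heterotrimers of an alpha, a beta and a gamma chain that form the core of basement membranes and are themselves ligands of several integrins. In melanoma both families are known for their part in attachment, migration and crossing of the basement membrane.

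PolyA RNA was sequenced from 451Lu-R and 1205Lu-R cells after 24 h with 2.5 μM corin or with DMSO, with 2 libraries in each of the 4 groups. Corin is a bivalent small molecule that inhibits the deacetylase and the demethylase (LSD1) activities of the CoREST repressor complex. Both lines are melanoma cells selected for resistance by culture in rising amounts of PLX4032, a BRAF inhibitor, so the DMSO controls carry that selection too. The paper states that resistant lines were kept in PLX4032 to maintain resistance. None is listed for the DMSO and corin groups, and the part of its absence in the results was not tested. The study describes 451Lu-R as MITF-high and AXL-low and 1205Lu-R as the reverse, and each is a single line, so a line difference stands for these 2 lines and not for a class of melanoma. Groups with PLX4032 were not analysed here, and the sources used here do not say whether the libraries of a group came from separate cultures, so the p-values measure the spread between 2 libraries, which may be technical.

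The 8 libraries held 9516687 to 11797788 estimated counts, and log2 levels of replicates correlated at 0.9949 to 0.9962 across genes. Levels are given as CPM, the estimated counts scaled for library size and composition (TMM), or as CPM per kb of exon where genes are compared with each other. The lines matched their descriptions: all 10 melanocyte lineage markers were above 1 CPM in 451Lu-R with DMSO (summed 13200 CPM), against 1 of 10 in 1205Lu-R with DMSO (summed 9.28 to 9.78 CPM), where SOX10, TYR and TYRP1 had 0 counts. The 6 markers of undifferentiated melanoma summed to 61.7 to 63.3 CPM in 451Lu-R and 3140 to 3170 CPM in 1205Lu-R with DMSO. With corin they summed to 523 to 526 and 2470 to 2490 CPM in the same order. All 6 were higher with corin in 451Lu-R, where NGFR gave 365 CPM and TNC 127 CPM, but AXL only 2.47 CPM. In 1205Lu-R the markers moved in opposite directions. NGFR went from 6.09 to 198 CPM there, whereas AXL went from 1000 to 465 CPM and WNT5A from 201 to 36.7 CPM. EGFR, SOX9 and TNC were also lower with corin in that line. The share of counts from mitochondrial genes also moved with corin, from 2.98% and 3.07% to 5.90% and 5.86% in 451Lu-R and from 0.377% in both libraries to 0.705% and 0.707% in 1205Lu-R, and its part in the results was not tested. In bulk RNA, fewer cells of a type and less RNA per cell cannot be told apart.

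Of the 37 members, 31 reached a mean of 1 CPM in at least 1 group, 25 of them in 451Lu-R with DMSO, 28 in 451Lu-R with corin, 27 in 1205Lu-R with DMSO and 30 in 1205Lu-R with corin. The remaining 6 were ITGAD, ITGAL, ITGAM, ITGB6, ITGB7 and LAMB4, none of which exceeded 11.9 estimated counts in any library. ITGAD, ITGAL and ITGAM are leukocyte chains, ITGB7 pairs with ITGA4 and ITGAE in lymphocytes, ITGB6 is an epithelial partner of ITGAV and LAMB4 is a little studied laminin beta chain.

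**Figure D1:**
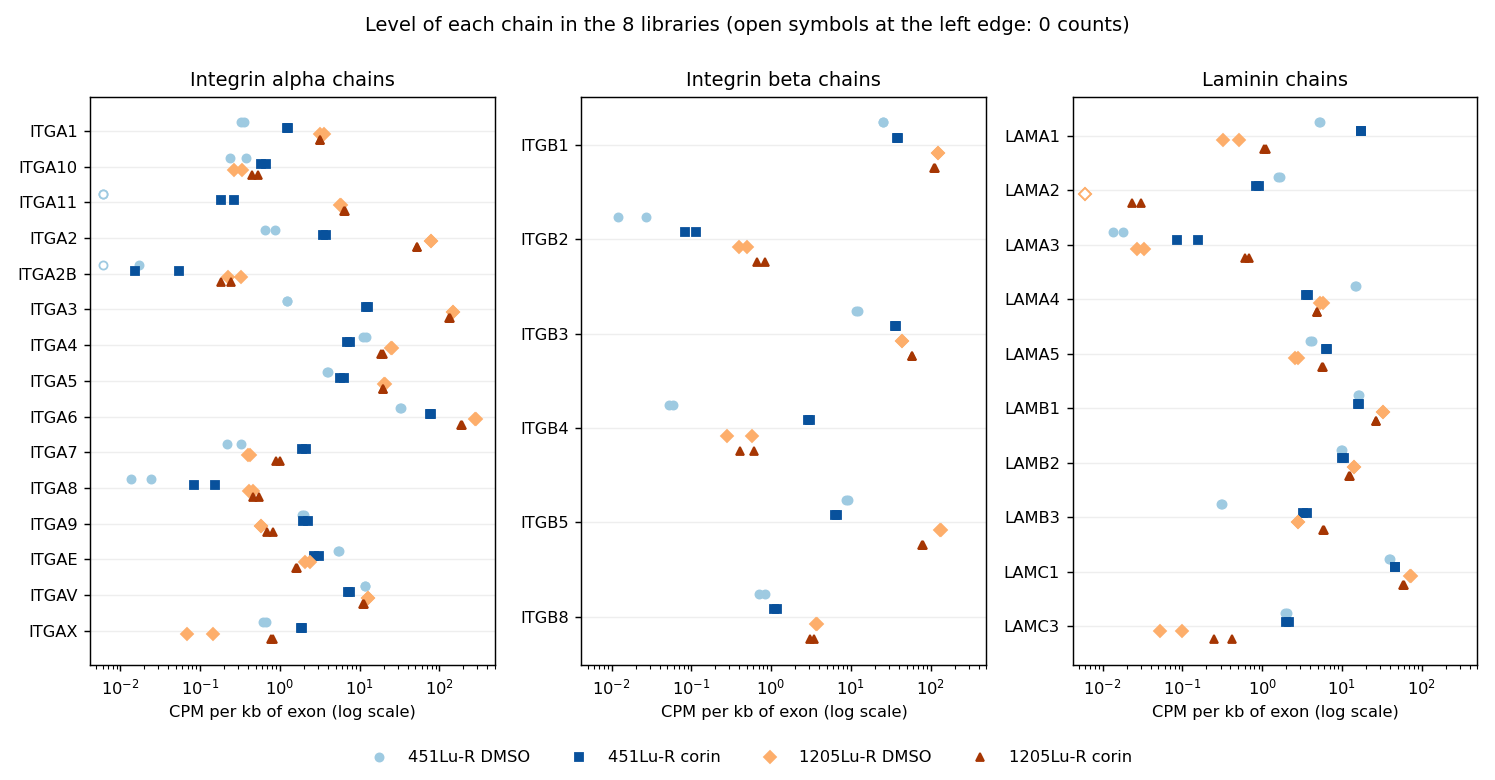
CPM per kb of exon (log scale) of the 31 chains that reached a mean of 1 CPM in a group, with a point for each of the 8 libraries and open symbols at the left edge for libraries with 0 counts. ITGA6 is the highest alpha chain in every group, from 32.8 CPM per kb in 451Lu-R with DMSO to 284 in 1205Lu-R with DMSO, and ITGB4 stands apart in 451Lu-R with corin at 3.0 CPM per kb.

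The first question was how the lines differ without corin. With DMSO, integrin chains were far more abundant in 1205Lu-R. The alpha chains summed to 71.0 ± 1.44 CPM per kb (SD, n = 2) in 451Lu-R, against 581.6 ± 3.33 in 1205Lu-R. The beta chains summed to 47.3 ± 0.904 and 305.7 ± 1.38 CPM per kb in the same order. The laminin chains summed to 93.4 ± 1.97 CPM per kb in 451Lu-R and 130.7 ± 0.532 in 1205Lu-R. Genes were called at an adjusted p under 0.001 and a fold change of 2 or more with edgeR's quasi-likelihood test. Of 30 members tested 16 were called higher in 1205Lu-R and 7 lower, beside 18.6% higher and 20.3% lower among all 14104 genes tested. All 6 beta chains tested and 9 of 15 alpha chains were higher, and of 9 laminin chains 1 was higher and 4 lower. The median log2 difference was 1.49 over the members and -0.01 over all genes.

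Laminin- and collagen-binding alpha chains carried much of this line difference. ITGA3 (chromosome 17, 50055968 to 50090481, plus strand), a laminin receptor chain, was at 11.9 and 12.0 CPM in the 451Lu-R libraries and 1440 CPM in both 1205Lu-R libraries. That is 119-fold higher in 1205Lu-R (log2 6.89 ± 0.041 SE, edgeR adjusted p = 1.64e-34). ITGA2 (chromosome 5, 52989340 to 53094779, plus strand), a collagen and laminin receptor chain, was at 5.09 and 6.79 CPM in 451Lu-R and 620 and 626 CPM in 1205Lu-R. The groups lay far apart, with a log2 difference of 6.70 ± 0.058 (edgeR adjusted p = 2.6e-31). ITGA6, the laminin receptor chain that can pair with ITGB1 or ITGB4, was the most abundant alpha chain per kb of exon in both lines, at 222 and 217 CPM in 451Lu-R and 1913 and 1881 CPM in 1205Lu-R (log2 difference 3.09 ± 0.024). Collagen receptor chain ITGA11 (chromosome 15, 68296532 to 68432163, minus strand) had 0 counts in both 451Lu-R libraries and 63.0 and 61.6 CPM in 1205Lu-R, which is at least 223-fold higher against a floor of 3 counts per library. ITGA1, another collagen receptor chain, was 9.76-fold higher in 1205Lu-R, at 6.58 and 6.10 CPM against 59.6 and 66.2 CPM. Reads of ITGA1 cannot be separated with certainty from those of PELO, a gene on the same strand whose exons overlap it.

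Among receptors of fibronectin and related ligands, ITGA5 was 5.11-fold and ITGA4 2.16-fold higher in 1205Lu-R, whereas ITGAV, the widest partner among alpha chains, was at 228 and 224 CPM in 451Lu-R and 246 and 244 CPM in 1205Lu-R and was not called. ITGA8 rested on 3 counts in all in 451Lu-R, at 0.175 and 0.0984 CPM, and was at 3.39 and 3.03 CPM in 1205Lu-R. The platelet chain ITGA2B had 1 count in all in 451Lu-R and was 34.1-fold higher in 1205Lu-R by its counts, with a 95% counting interval of 5.71 to 1390, and its call was lost with DESeq2 (log2 5.07). ITGAX, ITGA9 and ITGAE went the other way. The leukocyte chain ITGAX was 5.87-fold lower in 1205Lu-R, at 4.30 and 4.72 CPM against 1.03 and 0.488 CPM. ITGA9 was 3.42-fold lower, and ITGAE, the partner of ITGB7, 2.49-fold lower. Exons of ITGAE overlap those of HASPIN, and exons of ITGA4 those of CERKL, each on the opposite strand. Whether counting used strand is not given in the sources. ITGA10 and ITGA7 were not called between the lines.

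Of the beta chains, ITGB5, a partner of ITGAV, showed the largest called difference among those with more than 3 counts in each line. It was at 59.4 and 56.8 CPM in 451Lu-R and 859 and 881 CPM in 1205Lu-R, a 14.8-fold difference (log2 3.89 ± 0.035 SE, edgeR adjusted p = 4.09e-31). ITGB1, the common partner of most alpha chains, was at 373 and 374 CPM in 451Lu-R and 1814 and 1791 CPM in 1205Lu-R, 4.77-fold apart. ITGB3 was 3.63-fold and ITGB8 4.69-fold higher in 1205Lu-R. ITGB2, the leukocyte beta chain, had 3 counts in all in 451Lu-R and was 23.8-fold higher by counts in 1205Lu-R, with a 95% counting interval of 7.80 to 118. ITGB4 (chromosome 17, 75721328 to 75757818, plus strand), the hemidesmosome chain whose only known partner is ITGA6, was low in both lines, at 0.351 and 0.394 CPM in 451Lu-R and 1.88 and 3.91 CPM in 1205Lu-R. The called log2 difference of 2.90 ± 0.49 did not pass the threshold without the second 1205Lu-R library (log2 2.30).

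Laminin chains divided between the lines. Chains LAMA1, LAMA2, LAMA4 and LAMC3 were higher in 451Lu-R, and LAMB3, a chain of epithelial laminin, was higher in 1205Lu-R. LAMA1, an alpha chain of embryonic basement membranes, was at 85.3 and 81.2 CPM in 451Lu-R and 5.17 and 8.21 CPM in 1205Lu-R (log2 -3.66 ± 0.10 SE, edgeR adjusted p = 9.81e-21). The muscle and nerve laminin chain LAMA2 was at 42.2 and 44.1 CPM in 451Lu-R and had 0 counts in both 1205Lu-R libraries, at least 150-fold lower there. LAMC3 was at 18.2 and 17.4 CPM in 451Lu-R and 0.470 and 0.879 CPM in 1205Lu-R. LAMA4, the alpha chain of vessel basement membranes, was 2.68-fold lower in 1205Lu-R. LAMB3 was at 1.40 and 1.48 CPM in 451Lu-R and 13.1 CPM in both 1205Lu-R libraries. The broadly expressed chains LAMB1, LAMB2, LAMC1 and LAMA5 differed by less than 2-fold and were not called, LAMB1 with a fold of 1.99. Under DESeq2, RLE size factors, a joint fit of all 8 libraries and the fit without the second 1205Lu-R library, LAMB1 passed the threshold.

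The next question was what 24 h of corin did in 451Lu-R. It raised 12 of 28 members tested and lowered 1, beside 20.6% of all 14530 genes raised and 11.9% lowered. By family, 7 of 13 alpha chains, 2 of 5 beta chains and 3 of 10 laminin chains rose, and the single chain that fell was a laminin. The median log2 fold change was 0.60 over the members and 0.03 over all genes.

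The largest change among chains detected with DMSO was in ITGB4. Its level went from 0.351 and 0.394 CPM to 21.0 and 19.6 CPM, 52.3-fold (log2 5.71 ± 0.24 SE, edgeR adjusted p = 1.95e-14). The DMSO libraries held 4 estimated counts each, so the size of the fold rests on few reads, whereas the corin libraries held 238 and 189. ITGB4's partner ITGA6 went from 222 and 217 CPM to 512 and 521 CPM, 2.31-fold. ITGA3 rose 10.1-fold from 11.9 and 12.0 CPM to 125 and 119 CPM (log2 3.33 ± 0.071, edgeR adjusted p = 4.49e-19). The third laminin receptor chain of this kind, ITGA7, known from muscle, rose 7.21-fold from 2.98 and 1.97 CPM to 19.4 and 17.3 CPM. Its exons overlap those of BLOC1S1 and METTL7B on the opposite strand, and the sources do not say whether counting used strand.

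Collagen receptor chains rose as well. ITGA2 rose 4.79-fold from 5.09 and 6.79 CPM to 30.0 and 27.4 CPM (log2 2.26 ± 0.13, edgeR adjusted p = 2.99e-12). ITGA1 rose 3.57-fold from 6.58 and 6.10 CPM to 23.2 and 22.9 CPM. ITGA11 went from 0 counts in both libraries to 33 and 19 counts, at least 8.74-fold higher. The fourth, ITGA10, was at 2.37 and 1.48 CPM with DMSO and 3.61 and 4.15 CPM with corin and was not called. ITGB3, which pairs with ITGAV and ITGA2B, rose 3.02-fold from 83.9 and 78.2 CPM to 251 and 247 CPM (log2 1.59 ± 0.038, edgeR adjusted p = 2.26e-18). Its exons overlap an unnamed protein-coding gene on the same strand.

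The alpha chains ITGA4, ITGA5, ITGA9, ITGAE and ITGAV and the beta chains ITGB1, ITGB5 and ITGB8 were not called. ITGA4 was at 129 and 116 CPM with DMSO and 73.6 and 80.1 CPM with corin, ITGAV at 228 and 224 CPM and 146 and 139 CPM, and ITGAE at 36.2 and 35.8 CPM and 17.8 and 20.6 CPM. All 3 were lower with corin, at 1.63-fold, 1.61-fold and 1.92-fold, short of the 2-fold limit. The groups of these 3 chains did not overlap, which says little with 2 libraries a group. Of all genes, 79.9% passed an edgeR adjusted p under 0.05 without a fold limit. ITGAE passed the 2-fold limit under library-size scaling and without the second corin library (log2 -1.04 in each). ITGB1 was 1.47-fold, ITGA5 1.5-fold and ITGB8 1.46-fold higher and ITGB5 1.40-fold lower, none of them called. ITGA9 was at 15.8 and 16.6 CPM with DMSO and 18.9 and 16 CPM with corin, with overlapping groups. The exon overlaps of ITGAE and ITGA4 with genes on the opposite strand apply here too.

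The leukocyte chain ITGAX rose 2.88-fold, from 4.30 and 4.72 CPM to 13.4 and 13.0 CPM. Its partner ITGB2 was at 0.0877 and 0.197 CPM with DMSO and 0.617 and 0.829 CPM with corin, on 3 counts in all with DMSO. Of 8 leukocyte markers, 5 were in the table, and they summed to 62.7 to 64.1 CPM with DMSO and 95.9 to 97.5 CPM with corin. Nearly all of that was CD68, a lysosomal protein, at 63.0 and 92.0 CPM, while the pan-leukocyte PTPRC was at 0.0492 and 0.184 CPM. CSF1R had 0 counts with DMSO.

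Laminin alpha chains moved in opposite directions in 451Lu-R. LAMA1 rose 3.23-fold from 85.3 and 81.2 CPM to 271 and 276 CPM (log2 1.69 ± 0.036, edgeR adjusted p = 4.46e-19). LAMA4 fell 4.10-fold from 178 and 174 CPM to 44.6 and 42.6 CPM (log2 -2.04 ± 0.046, edgeR adjusted p = 1.02e-18). LAMA4 was thus the most abundant laminin alpha chain per kb with DMSO, at 14.7 ± 0.218 CPM per kb, and LAMA1 with corin, at 17.3 ± 0.22. LAMA2 was 1.93-fold lower and LAMA5 1.54-fold higher, neither called, and LAMA2 passed the threshold under library-size scaling (log2 -1.04) and without the second corin library. The 5 endothelial markers summed to 11.2 to 14.8 CPM with DMSO and 81.4 to 85.2 CPM with corin, of which KDR gave 8.17 and 65.4 CPM and PECAM1 had 0 counts throughout, and their part in the laminin changes was not tested. The same list summed to 11.9 to 12.4 CPM and 46.6 to 52.5 CPM in 1205Lu-R. Of the epithelial laminin, LAMB3 rose 10.9-fold from 1.40 and 1.48 CPM to 15.2 and 16.8 CPM, and LAMA3 rose 7.32-fold from 0.263 and 0.197 CPM to 2.29 and 1.24 CPM. The LAMA3 call was lost with DESeq2 (log2 2.93), without the second DMSO library (log2 2.69) and without the first corin library (log2 2.35). Of 5 keratinocyte markers, 4 were in the table, summing to 20.2 to 20.4 CPM with DMSO and 18.2 to 21.2 CPM with corin. KRT10 made up most of this, while KRT5 had 0 counts with DMSO and 0.140 CPM with corin and KRT14 was at 0.328 and 4.75 CPM. LAMB1, LAMB2, LAMC1 and LAMC3 had fold changes between 1.02 and 1.16 and were not called.

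In 1205Lu-R the integrin chains, already high, mostly stayed within 2-fold of their DMSO level. Corin raised 7 of 30 members tested and 0 were called lower, also with DESeq2, beside 19.4% of all 14563 genes raised and 9.0% lowered. The median log2 fold change was -0.07 over the members and 0.03 over all genes. By family, 2 of 15 alpha chains rose, none of 6 beta chains was called, and 5 of 9 laminin chains rose. Without the fold limit, at an edgeR adjusted p under 0.05, 13 of the 30 members were lower with corin (also 13 at an unadjusted p under 0.05), near the 37.8% of all genes that were lower at that adjusted p.

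The alpha chains that rose were both of low abundance. ITGAX rose 7.39-fold from 1.03 and 0.488 CPM to 5.55 and 5.81 CPM (log2 2.89 ± 0.33, edgeR adjusted p = 5.17e-08), and ITGA7 rose 2.32-fold from 3.86 and 3.61 CPM to 9.25 and 8.01 CPM. The 5 leukocyte markers in the table summed to 11.7 to 12.1 CPM with DMSO and 17.8 to 19.0 CPM with corin, and PTPRC had 0 counts with DMSO and 0.0440 CPM with corin. ITGB2 was at 3.67 and 2.93 CPM with DMSO and 6.17 and 4.93 CPM with corin and was not called.

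Several abundant integrin chains were at lower levels with corin without passing the 2-fold limit. ITGB5 was at 859 and 881 CPM with DMSO and 515 and 530 CPM with corin, 1.65-fold lower. ITGA6 was 1.5-fold lower, at 1913 and 1881 CPM against 1268 and 1231 CPM, and ITGA2 was 1.48-fold lower, at 620 and 626 CPM against 415 and 416 CPM. The groups did not overlap for any of these 3 chains, which says little with 2 libraries a group. Of all genes, 78.3% passed an edgeR adjusted p under 0.05 without a fold limit. The chains ITGA3, ITGA1, ITGA5, ITGAV, ITGB1, ITGB8 and ITGA11 were within 1.14-fold of DMSO. ITGB4 was at 1.88 and 3.91 CPM with DMSO and 2.77 and 4.14 CPM with corin, with overlapping groups. ITGB3 was 1.36-fold and ITGA9 1.32-fold higher and ITGA4 1.30-fold and ITGAE 1.35-fold lower, none called, and the same held for ITGA8, ITGA10 and ITGA2B.

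Laminin chains made up most of the changes in this line, and LAMA3 (chromosome 18, 23689453 to 23956222, plus strand) had the largest fold change. It was at 0.470 and 0.391 CPM with DMSO and 8.84 and 9.95 CPM with corin, 21.5-fold higher (log2 4.43 ± 0.30 SE, edgeR adjusted p = 1.12e-11). LAMB3 rose 2.10-fold from 13.1 CPM in both libraries to 26.5 and 27.8 CPM.

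LAMA5, a widespread alpha chain of mature basement membranes, rose 2.16-fold from 39.7 and 36.7 CPM to 80.7 and 82.5 CPM (log2 1.11 ± 0.058, edgeR adjusted p = 1.05e-13), and its exons overlap those of ADRM1 on the opposite strand. LAMA1 rose 2.58-fold from 5.17 and 8.21 CPM to 17.6 and 16.6 CPM. LAMC3 rose 4.32-fold from 0.470 and 0.879 CPM to 3.70 and 2.20 CPM, a call lost with DESeq2 (log2 2.15) and without the first DMSO library (log2 1.71) or the first corin library (log2 1.71). LAMA2 had 0 counts with DMSO and 6 and 9 counts with corin, at least 2.45-fold higher, and did not reach the count filter. LAMA4, LAMB1, LAMB2 and LAMC1 were within 1.20-fold of DMSO.

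Set side by side, 27 members were tested in both lines. Of these, 5 rose in each, namely LAMA1, LAMA3, LAMB3, ITGA7 and ITGAX, none fell in each, and none was called in opposite directions. How many of all genes were called in both lines was not counted. The LAMA3 call in 451Lu-R was lost with DESeq2 and in some fits with a library left out. The log2 fold changes had the same sign in 18 of the 27, beside 76.5% of all 13200 genes tested in both lines. Across these members the fold changes correlated at r = 0.24, beside 0.692 across the 13200 genes, a description across genes that are not independent replicates. The difference between the responses was tested with an interaction term. It was called for 12 of 31 members, 9 with a lower response in 1205Lu-R than in 451Lu-R and 3 with a higher one, beside 7.09% lower and 5.73% higher among 16062 genes. With library-size scaling in place of TMM, the share of all calls that were higher in 1205Lu-R went from 44.7% to 60.6%, and the members called lower went from 9 to 8.

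The chains with a lower response in 1205Lu-R were ITGA1, ITGA2, ITGA3, ITGA6, ITGA7, ITGA11, ITGB3, ITGB4 and LAMB3. For ITGA3 the responses were 3.33 in 451Lu-R and -0.12 in 1205Lu-R on the log2 scale, a difference of -3.49 ± 0.085 (edgeR adjusted p = 1.77e-18). For ITGA6 they were 1.21 and -0.59, a difference of -1.84 ± 0.037 (edgeR adjusted p = 7.97e-20), and for ITGA2 2.26 and -0.57, a difference of -2.87 ± 0.13. The chains with a higher response in 1205Lu-R were LAMA2, LAMA4 and LAMC3. The log2 responses of LAMA4 were -2.04 (451Lu-R) and -0.18 (1205Lu-R), and those of LAMC3 0.02 and 2.11. ITGA11 and LAMA2 each had a group at 0 counts, so their fitted differences are not sizes.

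**Figure D2:**
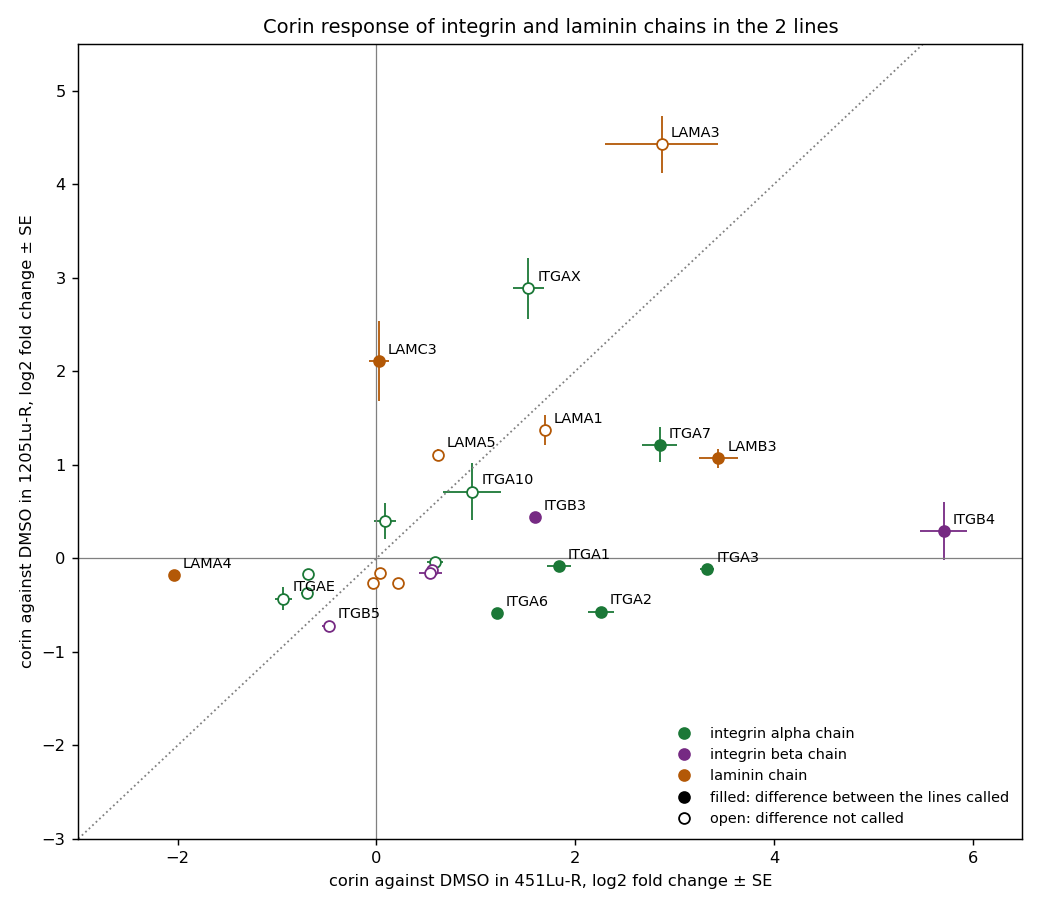
Log2 fold change with corin against DMSO (± SE, 2 libraries per group) in 451Lu-R on the x axis and in 1205Lu-R on the y axis, for the 26 chains tested in both lines without a group at 0 counts, with filled points where the difference between the lines was called and the dotted line for equal responses. ITGB4 and ITGA3 lie far to the right near 0 on the y axis, at 5.71 and 3.33 in 451Lu-R, while LAMA3 is high on both axes at 2.87 and 4.43.

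With corin in both lines, the lines were nearer to each other. Of 31 members tested, 14 were called higher in 1205Lu-R and 7 lower, beside 16.7% higher and 18.2% lower among all 15363 genes. The line difference was smaller in size with corin than with DMSO for 25 of the 30 members tested both ways, and the median size went from 2.45 to 1.45 on the log2 scale. Over 13610 genes the difference was smaller with corin for 58.6% and the median size went from 0.774 to 0.672. ITGA3 went from 119-fold to 10.7-fold higher in 1205Lu-R, ITGA2 from 104-fold to 14.4-fold and ITGA6 from 8.54-fold to 2.41-fold. ITGB5 kept a similar difference, 14.8-fold with DMSO and 12.3-fold with corin.

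For 3 members the order of the lines turned. ITGB4 was 7.46-fold higher in 1205Lu-R with DMSO and 5.80-fold lower there with corin (log2 -2.54 ± 0.16, edgeR adjusted p = 8.45e-11). ITGA7 was not called with DMSO and was 2.15-fold lower in 1205Lu-R with corin, a call lost without the second 1205Lu-R corin library (log2 -0.99). LAMA4 was 2.68-fold lower in 1205Lu-R with DMSO, and with corin it was at 44.6 and 42.6 CPM in 451Lu-R and 58.0 and 58.4 CPM in 1205Lu-R, a difference that was not called. LAMA1 stayed far higher in 451Lu-R, by 12.6-fold with DMSO and 16-fold with corin.

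**Figure D3:**
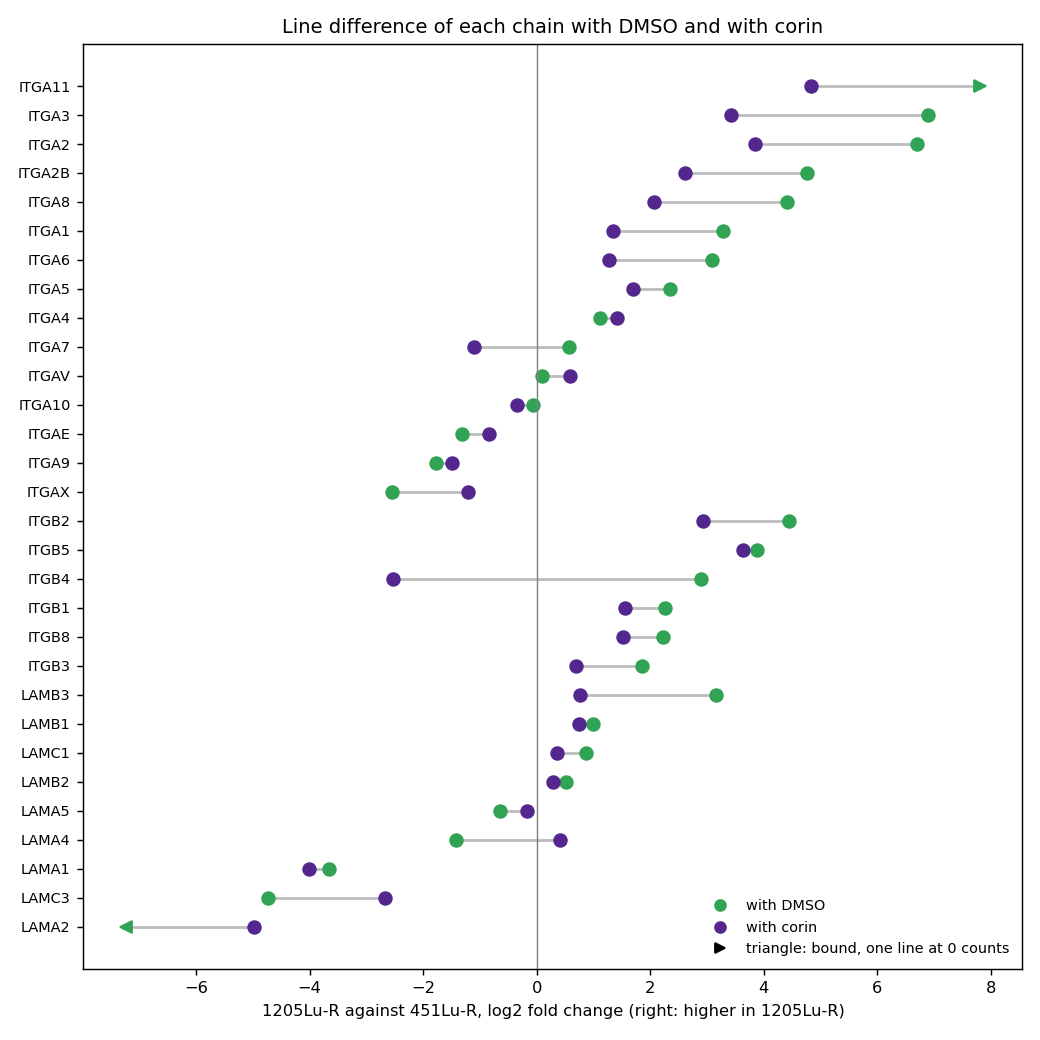
Log2 fold change of 1205Lu-R against 451Lu-R with DMSO (green) and with corin (purple) for the 30 chains tested in both comparisons, with triangles for bounds where a line had 0 counts. Most purple points lie nearer to 0 than their green partner, and ITGB4 goes from 2.90 to -2.54.

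Composition of each pool was described as the share of every chain in the summed CPM per kb. On this scale ITGA6 led the alpha chains in all groups, with 46.2% ± 0.21 (SD, n = 2) in 451Lu-R with DMSO, 61.7% ± 0.35 with corin, 48.8% ± 0.30 in 1205Lu-R with DMSO and 42.6% ± 0.54 with corin. Behind it, ITGAV (16.5%) and ITGA4 (16.2%) came next in 451Lu-R with DMSO, and ITGA3 (9.95%) with corin, when ITGAV and ITGA4 held 5.88% and 5.75%. In 1205Lu-R the next were ITGA3 (25.3% with DMSO and 30.6% with corin) and ITGA2 (13.6% and 12.0%). The order depended on the division by exonic length. Without it ITGAV came first in 451Lu-R with DMSO (33.1%, ITGA6 32.1%) and ITGA3 in 1205Lu-R with corin (35.4%, ITGA6 33.6%), and in 451Lu-R with corin ITGAV (13.8%) came before ITGA3 (11.9%). The summed alpha chain level was 125.4 ± 0.836 CPM per kb in 451Lu-R with corin and 439.0 ± 3.71 in 1205Lu-R with corin, so the lines, 71.0 and 581.6 with DMSO, lay nearer to each other after treatment.

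Among beta chains, ITGB1 held 54.2% ± 1.1 in 451Lu-R with DMSO and 44.7% ± 1.2 with corin, while ITGB3 went from 25.1% ± 0.75 to 42.6% ± 0.57 and ITGB5 from 18.8% to 7.57%. ITGB4 went from 0.116% to 3.50%. In 1205Lu-R with DMSO, ITGB5 held 43.7% ± 0.59 and ITGB1 40.5% ± 0.55, and with corin ITGB1 held 43.8% and ITGB5 31.4%. The order of ITGB5 and ITGB1 with DMSO turned when counts were not divided by exonic length (28.7% and 59.4%).

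In the laminin pool LAMC1, the gamma chain of most laminins, led throughout, with 42.1% to 43.5% in 451Lu-R and 50.6% to 55.4% in 1205Lu-R, followed by LAMB1 except in 451Lu-R with corin. There LAMA1 held 16.2%, LAMB1 15.1% and LAMA4 3.41%, against 5.62%, 17.4% and 15.8% with DMSO. Without division by length LAMB1 was second there too, at 24.3% beside 22.2% for LAMA1. In 1205Lu-R no alpha chain held more than 4.86%, the share of LAMA5 with corin.

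**Figure D4:**
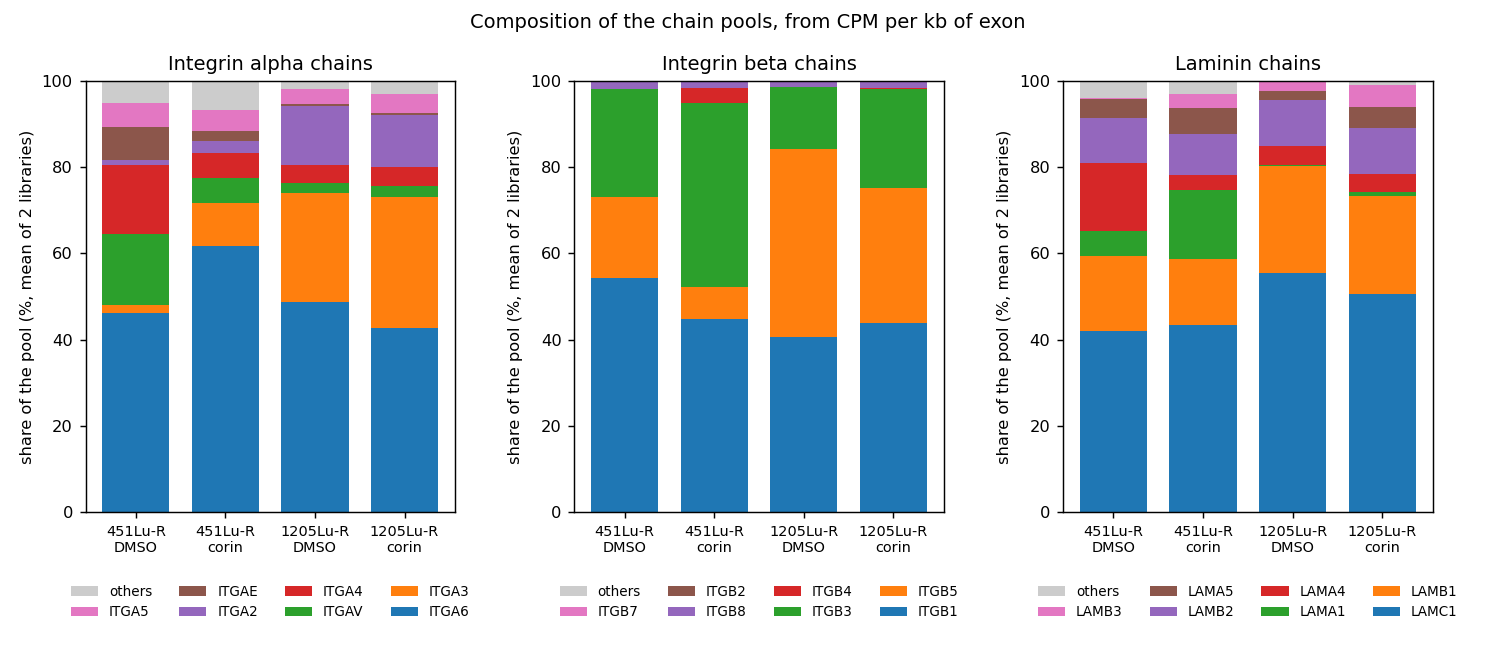
Share of each chain in the summed CPM per kb of the integrin alpha, integrin beta and laminin pools (%, mean of 2 libraries), in stacked bars for the 4 groups with the 7 highest chains of a pool in colour and the rest in grey. The LAMA1 segment goes from 5.62% to 16.2% and the ITGB3 segment from 25.1% to 42.6% between DMSO and corin in 451Lu-R.

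Upstream sequence is shown for LAMA3 and LAMB3, which rose in both lines, and for ITGA6 and ITGA11, which rose in 451Lu-R and had a lower response in 1205Lu-R. ITGA1 and ITGA2 also rose in 451Lu-R with a lower response in 1205Lu-R, and their windows are not shown. Sequences are from RefSeq (GRCh38.p14), which listed a start for 26 of the 37 members. The other 11 were ITGA3, ITGA7, ITGA9, ITGAD, ITGAL, ITGAX, ITGB2, ITGB3, ITGB4, LAMA1 and LAMC3. Each line holds the 250 bases before the first listed start, 5′ to 3′ on the gene's strand, with capitals on matches of either strand to CAGGTG or CATGTG (E-boxes), TGANTCA (AP-1) or GGAATG (TEAD). The LAMA3 start lies 183567 bp inside the gene from its annotated beginning.
LAMA3, chr18:23872770-23873019, plus strand: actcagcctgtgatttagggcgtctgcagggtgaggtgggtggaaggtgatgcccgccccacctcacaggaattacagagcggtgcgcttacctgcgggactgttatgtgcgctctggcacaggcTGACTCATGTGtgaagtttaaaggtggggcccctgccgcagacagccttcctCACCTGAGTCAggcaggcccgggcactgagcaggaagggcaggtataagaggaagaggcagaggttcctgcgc
LAMB3, chr1:209652426-209652675, minus strand: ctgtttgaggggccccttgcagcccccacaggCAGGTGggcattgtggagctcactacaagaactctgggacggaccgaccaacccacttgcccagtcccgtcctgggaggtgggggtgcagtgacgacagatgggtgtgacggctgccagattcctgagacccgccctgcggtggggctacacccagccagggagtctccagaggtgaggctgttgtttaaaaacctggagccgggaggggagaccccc
ITGA6, chr2:172427086-172427335, plus strand: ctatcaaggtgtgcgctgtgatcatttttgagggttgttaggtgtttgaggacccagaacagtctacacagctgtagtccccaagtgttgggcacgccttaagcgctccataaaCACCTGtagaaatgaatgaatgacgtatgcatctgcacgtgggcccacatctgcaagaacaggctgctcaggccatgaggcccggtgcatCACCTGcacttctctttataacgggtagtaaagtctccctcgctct
ITGA11, chr15:68432164-68432413, minus strand: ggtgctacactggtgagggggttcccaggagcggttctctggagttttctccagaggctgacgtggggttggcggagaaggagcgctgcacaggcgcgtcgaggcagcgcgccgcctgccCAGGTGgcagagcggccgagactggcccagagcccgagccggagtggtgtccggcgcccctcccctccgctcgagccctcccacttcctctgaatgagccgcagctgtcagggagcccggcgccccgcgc

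The LAMA3 window held 2 matches to TGANTCA, and each shared bases with an E-box match, the first with CATGTG and the second with CAGGTG read on the other strand. LAMA3 was the only member of the 26 with a match to TGANTCA, a motif present in 6.60% of the 27305 upstream windows of the same length. CAGGTG was present in 7 of 26 members, 26.9%, and in 17.5% of all windows, and ITGA6 had 2 matches. CATGTG was present in 3 of 26 members against 9.54% of all windows, and GGAATG in 4 of 26 against 11.9%. The windows of ITGA1 and ITGA2 held no match to any of these motifs, whereas each window shown holds CAGGTG. A match describes the letters in a window and not a bound site.

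Other genes of the pathway were read from lists of integrin activators and adhesion-site adaptors, other integrin ligands, and basement membrane partners with other laminin receptors. Of the activators and adaptors, 4 of 24 tested rose and 5 fell in 451Lu-R with corin, and 5 of 27 rose and 6 fell in 1205Lu-R. The shares of all genes called in these comparisons were 20.6% up and 11.9% down for the former line and 19.4% up and 9.0% down for the latter, so the counts of rises in this list were near those of all genes. TNS1, a tensin that joins integrin tails to actin, moved in opposite directions, from 266.4 ± 0.181 to 31.5 ± 1.45 CPM (SD, n = 2) in 451Lu-R and from 1.44 ± 0.0972 to 21.8 ± 1.11 CPM in 1205Lu-R (interaction log2 6.99 ± 0.15, edgeR adjusted p = 3.1e-19). TNS3, another tensin, fell in both lines (log2 -2.26 and -2.60), as did TGFB1I1, a paxillin relative (log2 -2.59 and -3.17). VCL and ZYX went the other way in 451Lu-R, from 85.5 to 287.4 CPM and from 70.5 to 179.1 CPM. In 1205Lu-R, VCL went from 375.3 to 489.0 CPM and ZYX from 435.7 to 326.6 CPM. The interaction was called for both (log2 -1.37 ± 0.051 for VCL and -1.76 ± 0.052 for ZYX). With DMSO, 14 of 26 tested were higher and 4 lower in 1205Lu-R, beside 18.6% and 20.3% of all genes.

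Of the other integrin ligands, corin raised 8 of 10 tested in 451Lu-R, raised 6 of 14 in 1205Lu-R (20.6% and 19.4% of all genes) and lowered none in either line (11.9% and 9.0% of all genes). SPP1 (osteopontin), a ligand of ITGAV integrins, went from 9.96 to 160.3 CPM in 451Lu-R and from 0.384 to 7.42 CPM in 1205Lu-R. FBN1 and THBS2, both secreted matrix proteins, rose in 451Lu-R from 0.219 to 7.01 CPM and from 0.181 to 4.45 CPM, and were at 173.1 and 1399 CPM in 1205Lu-R with DMSO. The 451Lu-R DMSO libraries held 4.99 and 0 estimated counts of FBN1 and 3 and 1 of THBS2, so the size of these rises rests on few reads. ICAM1, a ligand of leukocyte integrins, rose in 1205Lu-R from 51.4 to 330.9 CPM. FN1 (fibronectin), a ligand of ITGA5 and ITGAV integrins, was at 664.2 and 1931 CPM in 451Lu-R and 5781 and 4723 CPM in 1205Lu-R, with DMSO and corin in turn (interaction log2 -1.83 ± 0.025, edgeR adjusted p = 1.05e-22). With DMSO 9 of 13 tested were higher in 1205Lu-R and 3 lower, beside 18.6% and 20.3% of all genes.

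Of the basement membrane partners and other laminin receptors, 5 of 13 tested rose in 451Lu-R, 5 of 16 did so in 1205Lu-R (20.6% and 19.4% of all genes) and none fell in either line (11.9% and 9.0% of all genes). DAG1 (dystroglycan), a laminin receptor outside the integrin family, rose 1.81 ± 0.034 on the log2 scale in 451Lu-R, from 84.9 to 303.5 CPM. NID2 (nidogen), which links laminin to collagen IV, rose from 3.45 to 36.5 CPM in 1205Lu-R. With DMSO, 10 of 15 were higher in 1205Lu-R and 1 lower, beside 18.6% and 20.3% of all genes. Among the higher ones, COL4A1 was at 2.76 CPM in 451Lu-R and 498.4 CPM in 1205Lu-R, and COL4A2 at 0 counts and 1159 CPM.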

How the data were processed

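The authors trimmed polyA RNA reads with Trimmomatic, estimated transcript abundance with Salmon on a GENCODE transcript set and deposited estimated counts per gene for 8 libraries, named here by line, treatment and replicate. Versions of the tools and the strand of the libraries were not given in the sources used here. The deposited tables of the authors' own comparisons, which include the PLX4032 groups, hold fold changes and p-values and were not used. Gene IDs were matched to GENCODE release 44, which gave names for 34052 of 34228 genes, coordinates on hg38 and exonic lengths (the union of a gene's exons).

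Expected counts were rounded, filtered with filterByExpr and tested with edgeR 4.0.16 (R 4.3.3) by TMM scaling and the two-sided quasi-likelihood test, with Benjamini-Hochberg adjustment over all genes tested in a comparison. Each comparison of 2 groups was fitted on their 4 libraries, and all 8 libraries were fitted for the interaction. A call needed an adjusted p under 0.001 and a fold change of 2 or more. Fold changes against a group at 0 counts were replaced by a bound at 3 counts per library, and groups with 1 to 3 counts in all by a ratio with an exact 95% interval, both covering counting error only. The fits were run on simulated counts of a fixed spread, with 200 changed genes drawn from those above a level limit. That run does not cover calls at low counts. Same-numbered replicates did not deviate together (r -0.0184 to 0.0525 across genes).

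The members and the other gene lists were chosen with earlier results of these data known. All members were accounted for except 1 laminin chain which, like 1 leukocyte marker, is not reported here, those with a mean of 1 CPM in a group by their levels, and up to 4 genes per other list were eligible by size of change. Alternatives were DESeq2 1.42.0, other scalings, filters and thresholds, a replicate block, a joint fit, each library left out, and shares without division by length.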

Additional observations from a re-analysis of the deposited data

Results flagged for a closer look

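The corin response differed between the lines, by the interaction term and at the same threshold as above, for 12 chains, given here as the log2 response in 1205Lu-R minus that in 451Lu-R. Lower responses in 1205Lu-R were found for ITGB4 (-5.45), ITGA3 (-3.49), ITGA2 (-2.87), LAMB3 (-2.41), ITGA1 (-1.96), ITGA6 (-1.84), ITGA7 (-1.68) and ITGB3 (-1.19), and higher ones for LAMC3 (2.04) and LAMA4 (1.82). ITGA11 (-7.54) and LAMA2 (6.86) rest on a DMSO group with 0 counts in a line, so the fitted values depend on the prior count and give no size. LAMC3 lost its call without the first 1205Lu-R DMSO library (1.65) or the first 1205Lu-R corin library (1.67), and ITGB3 under library-size scaling (-0.98).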

How the results depend on the processing

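With 2 libraries a group, leaving out each library in turn gave 11 to 12 members that rose and 1 to 3 that fell in 451Lu-R, 6 to 7 and 0 (in every fit) in 1205Lu-R, 2 to 3 higher and 9 lower (in every fit) for the difference between the lines, 15 to 16 higher and 7 lower between lines with DMSO, and 12 to 13 and 6 to 7 with corin, the lone library being assumed to vary like the others. At a fold change of 4 or more, 7 members rose in 451Lu-R, 3 rose in 1205Lu-R, 5 were lower for the difference, 4 were lower with DMSO, and 8 were higher and 4 lower with corin (12.4%, 11.3%, 3.13%, 10.6%, 8.45% and 8.55% of all genes in turn). At an adjusted p under 0.05 with no fold limit, 6 fell in 451Lu-R, 11 rose and 13 fell in 1205Lu-R, and 8 were higher and 17 lower for the difference. At that threshold 38.6% of all genes fell in 451Lu-R, 40.4% rose and 37.8% fell in 1205Lu-R, and 22.6% were higher and 27.1% lower for the difference, so the counts in 1205Lu-R were near those of all genes. Members that fell in 451Lu-R came to 3 under library-size scaling, which moved the median of all genes in the interaction from -0.01 to 0.20. The cause of these changes was not tested, apart from the thresholds themselves.

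Library-size scaling turned the sign of values near 0, namely ITGA9 (-0.0086), LAMB2 (-0.059) and LAMC3 (-0.074) in 451Lu-R, ITGA5 (0.031) in 1205Lu-R and ITGAV (-0.011) between lines with DMSO. Leaving out a library gave a range across 0 for ITGA9 (-0.039 to 0.20) and LAMC3 (-0.030 to 0.093) in 451Lu-R, ITGB4 (-0.16 to 0.88) in 1205Lu-R and ITGA10 (-0.36 to 0.30) between lines with DMSO, and none of these was called. The replicate block, which the numbers do not warrant as a pairing, gave 12 risen and 1 fallen in 451Lu-R, 7 and 0 in 1205Lu-R, 3 higher and 9 lower for the difference, 16 and 7 between lines with DMSO and 13 and 7 with corin.

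Without division by exonic length the shares of ITGA6 were 32.1%, 50.1%, 39.7% and 33.6% (451Lu-R with DMSO and corin, then 1205Lu-R), of ITGB1 71.1% and 62.8% (451Lu-R, the same order) and 62.4% in 1205Lu-R with corin, of ITGB5 28.7% in 1205Lu-R with DMSO, and of LAMC1 30.7%, 31.9%, 42.5% and 39.1%. Single libraries gave ITGA6 46.1% to 46.4%, 61.4% to 61.9%, 48.6% to 49.0% and 42.2% to 43.0% in the same order, ITGB1 53.4% to 55.0%, 43.9% to 45.6% and 43.4% to 44.2%, ITGB5 43.3% to 44.1%, and LAMC1 42.0% to 42.2%, 43.5% to 43.6%, 55.3% to 55.4% and 50.3% to 51.0%. Low counts limit ITGA2B, ITGA8, ITGB2 and LAMA3.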
